A study of Larimichthys polyactis and Larimichthys crocea with 36 samples.

Results

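The brains of both reciprocal hybrids of small and large yellow croaker were compared with the brains of both parental species. The parents were Larimichthys polyactis (small yellow croaker, LP) and Larimichthys crocea (large yellow croaker, LC), and the labels call the hybrids LPC and LCP. The 12 brain libraries, 3 of each cross, were taken by column name from the 36 libraries of the series, which also covers liver and muscle. No treatment, age or sex is stated, the labels do not say which species was the mother of either hybrid, and nothing says that the 3 libraries of a cross came from separate fish. The p-values therefore rest on the spread among libraries of a cross, part of which may be technical. The series concerns heterosis of growth-related traits.

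In a hybrid, each parental genome supplies an allele of most genes. When both alleles keep the activity they had in the parents, the hybrid level of a gene lies midway between the parental levels, which is called additive. A gene at the level of one parent is called dominant, and a gene above or below both parents is called transgressive. The brain mixes neurons, glia and endocrine cells, so a bulk library averages over them, and fewer cells of a type cannot be told apart from less RNA per cell.

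Levels are FPKM, fragment numbers divided by transcript length and library total, as the authors deposited them. The table lists 24212 gene identifiers (IDs), of which 17931 were tested because 3 or more of the 12 brain libraries had an FPKM of at least 1. The table does not pair IDs with gene names, so levels are given by ID, no roles can be given, and the tissue label could not be checked against named markers. Of the IDs tested, 1652 (9.21%) start with BGI_novel and the others start with evm (EVM IDs). The chromosome number inside an EVM ID is part of its name, and no coordinates were used. The depth of each library is unknown.

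Brain libraries did not sort by cross alone. The first principal component of log2(FPKM + 1), with 34.4% of the variance, ran from LP 3 (-83.4), LP 1 (-77.4) and LCP 1 (-69.8) to LC 2 (52.6), LPC 2 (57.0) and LPC 3 (63.6), so that each end held libraries of more than one cross. The third component held the 3 LP libraries at 19.0 to 34.6 and the 3 LC libraries at -49.0 to -37.5, while LPC 3 (58.0) and LCP 2 (49.0) lay beyond LP. These 2 hybrid libraries were closest to each other (Spearman rank correlation across IDs 0.907). Their 10 most abundant IDs took 9.29% and 9.14% of the FPKM sum, against 4.55% to 6.31% in the other libraries. The share averaged 6.74% ± 1.95 (SD, n = 6) in hybrid libraries and 5.35% ± 0.616 (SD, n = 6) in parental ones (exact 2-sided permutation p = 0.162, adjusted over 2 measures p = 0.325). IDs at an FPKM of at least 1 numbered 16368 ± 712 (SD, n = 6) and 15960 ± 771 (SD, n = 6), with an exact permutation p of 0.37 (adjusted p = 0.37).

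**Figure D1:**
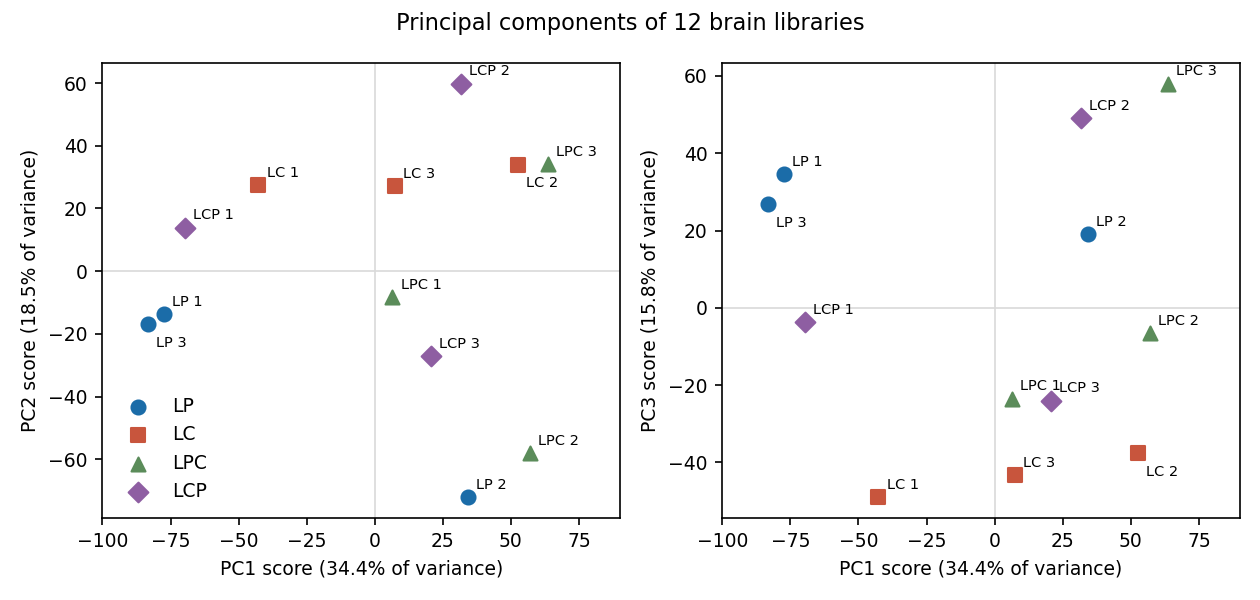
Scores of the 12 brain libraries on the first principal component (34.4% of the variance) against the second (18.5%, left) and the third (right). Each point is 1 library and colour and shape give its cross. LPC 3 and LCP 2 lie above the other libraries on the third component, at 58.0 and 49.0.

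A few IDs were high in libraries of several crosses and far lower in the others of the same crosses. Such IDs were looked for after the principal components were seen, at an FPKM of at least 10 in every library of a set and 10-fold or more below the set's lowest value elsewhere. Of the 24212 IDs, 1 met this for LP 1, LP 3, LC 1 and LCP 1. For LP 2, LPC 2 and LCP 3 there were 2, and for LC 2, LPC 3 and LCP 2 there were 5. For each set 1 ID is given, chosen after its values were seen. The ID evm.model.Chr22.238 stood at 2174.87 in LP 2, 2351.01 in LPC 2 and 4082.03 in LCP 3, and at no more than 23.27 in the other 9 libraries. The ID evm.model.Chr9.853 stood at 230.53 in LP 1, 336.74 in LP 3, 135.68 in LC 1 and 277.09 in LCP 1, and was listed at 0 in the other 8. The ID evm.model.Chr4.1034 stood at 259.19 in LC 2, 378.39 in LPC 3 and 255.21 in LCP 2, and at no more than 9.63 elsewhere. All had means under 1 in liver and in muscle. These sets of libraries cut across the crosses, and their part in the results was not tested.

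The typical spread between libraries of a cross was wider in the hybrids. The median SD of log2(FPKM + 1) over IDs was 0.322 in LP, 0.336 in LC, 0.364 in LPC and 0.436 in LCP, and this order was not tested. IDs whose FPKM + 1 ranged more than 10-fold within a cross numbered 375 in LPC, 358 in LCP, 352 in LP and 206 in LC. The median 95% interval of a difference between crosses reached 0.79 to either side on the log2 scale, so that for a typical ID only large differences could be called.

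Against LP, 71 IDs were higher and 26 lower in LPC brain (limma, Benjamini-Hochberg adjusted p under 0.05), which is 0.396% and 0.145% of the IDs tested and 0.541% in all. In LCP brain 64 IDs were higher than in LP and 27 lower (0.357% and 0.151%, 0.508% in all). Against LC, 31 IDs were higher and 10 lower in LPC (0.173% and 0.0558%, 0.229% in all), and 21 were higher and 8 lower in LCP (0.117% and 0.0446%, 0.162% in all). For comparison, 613 IDs were called between the parents themselves (3.42%), of which 301 were higher in LC (1.68%) and 312 higher in LP (1.74%). The LPC and LCP comparisons use the same parental libraries, so their counts are not independent. Whether LP and LC differ in their distance from a hybrid was not tested. An ID at an FPKM of at least 1 in the 3 libraries of a single cross and in no other library passed the filter only through that cross, so its call adds no support. There were 37 such IDs (0.206% of those tested), and they made up 11, 13, 3 and 1 of the calls of LPC against LP, LCP against LP, LPC against LC and LCP against LC. Of the 613 calls between the parents, 25 were such IDs. An ID that would fail the filter without its highest cross, but reached 1 in some library of another, is not among the 37. The counts of calls that add no support are thus lower bounds.

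**Figure D2:**
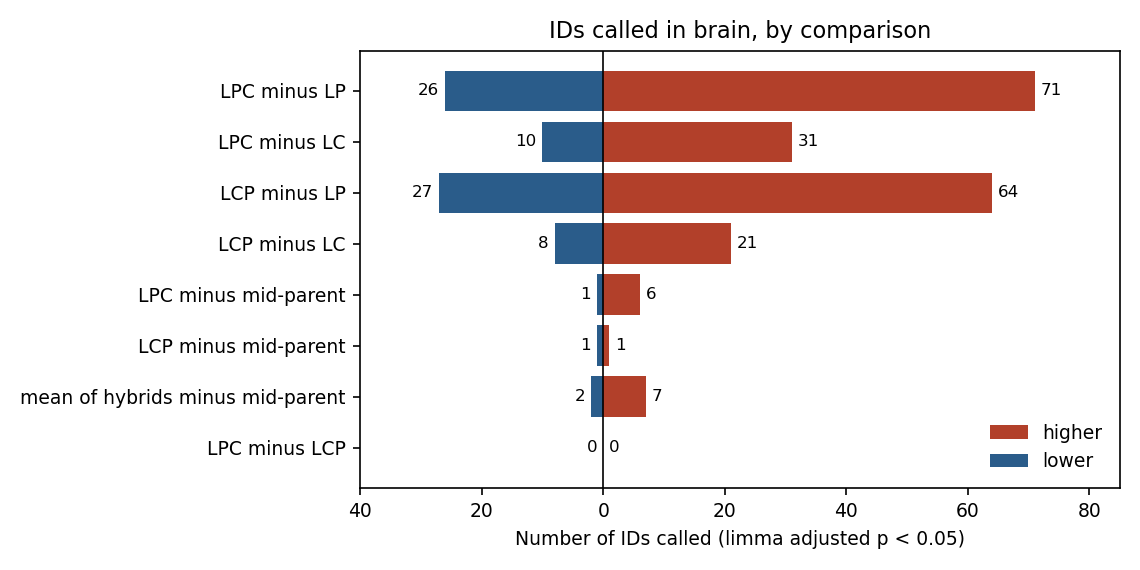
Number of IDs called in brain at a limma adjusted p under 0.05 in each comparison that involves a hybrid, with higher to the right of 0 and lower to the left. Counts are largest against LP (71 and 26 for LPC, 64 and 27 for LCP) and smaller against the mid-parent (at most 9 in all), and 0 IDs were called between the hybrids.

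Called differences were large, with a median size of 2.37 on the log2(FPKM + 1) scale for LPC against LP, 2.32 for LCP against LP, 2.96 for LPC against LC and 3.33 for LCP against LC. BGI_novel IDs made up 52.6%, 54.9%, 68.3% and 75.9% of the calls in these 4 comparisons, against 9.21% of the IDs tested. Between 1.33% and 3.09% of BGI_novel IDs were called in these comparisons, and between 0.043% and 0.283% of EVM IDs. Among the 613 IDs called between the parents, 37.7% were BGI_novel IDs. These shares count every call, including those given above that add no support. How far such calls raise the BGI_novel shares was not tested.

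The counts depended on single libraries. For LPC against LP the count of 97 was 38 without LP 1, 26 without LP 3, 54 without LPC 1, 41 without LPC 2 and 60 without LPC 3. For LCP against LP the count of 91 was 35 without LP 1, 48 without LP 2, 39 without LP 3, 58 without LC 3, 57 without LCP 1, 46 without LCP 2 and 44 without LCP 3. For LPC against LC the count of 41 was 18 without LC 1, 24 without LPC 2, 22 without LPC 3 and 27 without LCP 3, and for LCP against LC the count of 29 was 19 without LC 1 or without LCP 3. The count between the parents of 613 was 233 without LP 1. With the 2 libraries that stood apart, LPC 3 and LCP 2, both left out, 62, 29, 44 and 16 IDs were called in the order of LPC against LP, LPC against LC, LCP against LP and LCP against LC.

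The IDs with the greatest rise over LP were the same for both hybrids and were IDs of LC brain. The FPKM of evm.model.Chr23.828 was 109.45, 122.57 and 111.44 in LC and 0, 0 and 0.18 in LP. It was 61.05, 63.76 and 69.79 in LPC and 84.11, 63.49 and 56.87 in LCP. All 6 hybrid libraries lay above every LP library and below every LC library, with no overlap and at 56.7% (LPC) and 59.5% (LCP) of the LC mean. On the log2(FPKM + 1) scale the difference from LP was 5.96 (SE 0.18, limma adjusted p = 6.01e-08) for LPC and 6.01 (SE 0.18, adjusted p = 5.47e-08) for LCP. The difference from LC was -0.81 (SE 0.18, adjusted p = 0.16) and -0.76 (SE 0.18, adjusted p = 0.295).

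The FPKM of BGI_novel_G001511 was 220.66, 459.89 and 359.12 in LC, and 0, 0 and 0.28 in LP. It was 136.52, 341.43 and 173.57 in LPC and 122.57, 534.28 and 40.07 in LCP. The hybrids lay far above LP without overlap and overlapped LC, with LCP 2 above all LC libraries and LCP 3 the lowest. The difference from LP was 7.54 (SE 0.74, limma adjusted p = 0.00171) in LPC and 7.01 (SE 0.74, adjusted p = 0.00198) in LCP.

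The IDs with the greatest fall below LP were near 0 in both hybrids, as in LC. For BGI_novel_G000735 the FPKM was 32.74, 56.96 and 35.31 in LP, 0, 2.56 and 0 in LPC, and 5.17, 0 and 1.01 in LCP, and it was listed at 0 in all 3 LC libraries. All hybrid libraries lay below all LP libraries. LPC was below LP by -4.76 (SE 0.64, limma adjusted p = 0.0094) and LCP by -4.16 (SE 0.64, adjusted p = 0.0192). The call of LCP was lost without any 1 of the 3 LP libraries, without LCP 2 or without LCP 3 (adjusted p up to 0.0843), without LPC 3 and LCP 2 (0.0771) and with a pseudocount of 0.1 (0.176). The call of LPC was lost without LP 3 (0.0535) and with a pseudocount of 0.1 (0.0648). For BGI_novel_G002515 the FPKM was 31.27, 8.98 and 28.21 in LP, 0, 0 and 0.34 in LPC, and 0, 0 and 0.28 in LC, and it was listed at 0 in all LCP libraries. The hybrids thus lay below LP with no overlap, among the LC values. This ID passed the filter only through the 3 LP libraries and was not tested when any of them was left out, so no p-value is given for it.

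Against LC, the highest IDs in LPC were BGI_novel_G000692 and BGI_novel_G000687. The FPKM of BGI_novel_G000692 was 94.19, 68.92 and 33.42 in LPC, 11.36, 31.52 and 72.63 in LCP, 13.58, 86.33 and 5.0 in LP, and 0.15, 0 and 0 in LC. Both hybrids overlapped LP and lay above LC, by 5.87 in LPC (SE 0.88, limma adjusted p = 0.0281) and by 4.88 in LCP (SE 0.88, adjusted p = 0.0896). The FPKM of BGI_novel_G000687 was 251.17, 26.38 and 17.66 in LPC, 6.33, 9.87 and 2.99 in LP, and 2.87, 0 and 0.01 in LCP, and it was listed at 0 in LC. LPC was above all other libraries (adjusted p = 0.0329 against LC) and LPC 1 alone held most of its sum. The call of BGI_novel_G000692 was lost without any 1 of LP 1, LC 1, LC 2, LC 3, LPC 1, LPC 2, LPC 3 or LCP 2 (adjusted p up to 0.117) and without LPC 3 and LCP 2 (0.107), and that of BGI_novel_G000687 without LP 1, any 1 LC library, LPC 2, LCP 2 or LCP 3 (up to 0.118) and without LPC 3 and LCP 2 (0.0508).

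The IDs lowest in LPC against LC were BGI_novel_G002617 and BGI_novel_G000402. For BGI_novel_G002617 the FPKM was 22.56, 25.24 and 11.07 in LC, 0.16, 0 and 1.73 in LPC, and 6.86, 11.03 and 9.74 in LCP, and it was listed at 0 in LP. LPC lay near LP, and LCP lay between LP and LC at 46.9% of the LC mean. The highest LCP library (11.03) was just below the lowest LC library (11.07). No crosses overlapped except for the 0 that LPC 2 shares with LP. LPC was below LC by -3.73 (SE 0.41, limma adjusted p = 0.00337) and LCP by -0.96 (SE 0.41, adjusted p = 0.75). For BGI_novel_G000402 the FPKM was 20.58, 12.29 and 6.19 in LC and 0, 0 and 1.02 in LCP, and it was listed at 0 in LPC and LP. Both hybrids lay at the LP level, with an adjusted p against LC of 0.00337 for LPC and 0.00764 for LCP. The LPC call was lost with a filter at an FPKM of 5 (0.104). Outside LC only LCP 3 reached an FPKM of at least 1, so this ID would not have passed the filter without LC. Its calls therefore add no support.

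For the IDs named for LCP against LC, the ranges of the hybrids did not overlap, though no ID was called between LPC and LCP. The FPKM of BGI_novel_G001228 was 96.67, 59.44 and 136.42 in LCP and 82.9, 28.71 and 72.74 in LP, but 0.48, 1.87 and 11.36 in LPC and 0.24, 0.49 and 0.26 in LC. LCP thus overlapped LP, and all LPC libraries lay below all LP and LCP libraries. LCP was above LC by 6.14 (SE 0.68, limma adjusted p = 0.00409), and LPC differed from LC by 1.5 (SE 0.68, adjusted p = 0.573) and from LCP by -4.64 (SE 0.68, adjusted p = 0.0786). The FPKM of BGI_novel_G001591 was 54.65, 121.47 and 57.89 in LCP and 54.53, 108.94 and 132.57 in LP, against 1.71, 17.85 and 1.79 in LPC and 0, 0 and 1.19 in LC. Here too LCP overlapped LP while LPC lay between LC and LP without touching either. LCP was above LC by 5.83 (SE 0.71, adjusted p = 0.00807, and 0.0644 without LPC 3 and LCP 2), and LPC differed from LCP by -3.82 (SE 0.71, adjusted p = 0.265).

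The lowest IDs of LCP against LC showed the reverse arrangement. The FPKM of BGI_novel_G001590 was 1.05, 8.17 and 2.84 in LCP and 6.87, 3.25 and 2.04 in LP, 14.16, 24.18 and 13.5 in LPC, and 29.0, 62.95 and 50.06 in LC. LCP overlapped LP, and LPC lay between LP and LC without overlap. LPC differed from LCP by 2.09 (SE 0.54, limma adjusted p = 0.827). LCP was below LC by -3.47 (SE 0.54, limma adjusted p = 0.0403), a call lost without LP 2, LP 3, LCP 1, LCP 3 or any 1 LC or LPC library (adjusted p up to 0.162), with a pseudocount of 0.1 (0.0541) and with no filter (0.0571). The FPKM of BGI_novel_G000299 was 0.02, 0 and 0 in LCP, 0, 0 and 0.19 in LP, 2.76, 7.62 and 6.12 in LPC, and 6.05, 25.59 and 5.65 in LC. LPC overlapped LC and LCP overlapped LP, and LPC differed from LCP by 2.61 (SE 0.5, limma adjusted p = 0.311). LCP was below LC by -3.42 (SE 0.5, adjusted p = 0.0245), a call lost without LP 1, LPC 3 or any 1 LCP library (up to 0.107), without LPC 3 and LCP 2 together (0.164) and with a filter at an FPKM of 5 (0.0745).

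The mid-parent comparison asks whether a hybrid departs from the average of its parents. Taken on the log2 scale, 7 IDs were called in LPC (0.039%), 6 of them higher (0.0335%) and 1 lower (0.00558%), and 2 in LCP (0.0112%), 1 higher and 1 lower (0.00558% each). For the mean of both hybrids, 7 IDs were higher (0.039%) and 2 lower (0.0112%), 0.0502% in all, and 1120 of 17931 had an unadjusted p under 0.05. Quantile normalization moved the last split to 8 higher and 6 lower, the LPC split to 3 and 0 and the LCP split to 2 and 1, and median-ratio scaling gave 5 and 0 for LPC and 1 and 0 for LCP. The median 95% interval of this difference reached 0.56 to either side. Of the mid-parent calls, 1 in LPC and 1 for the mean of both hybrids were IDs that passed the filter only through 1 cross. The calls of evm.model.Chr22.95 and BGI_novel_G000856 in LPC, given below, add no support either. The same holds for evm.model.Chr10.59, called in LPC and for the mean of both hybrids. None of them would have passed the filter without the cross in which it was high.

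What counts as midway depends on the scale. For an ID listed in one parent and at 0 in the other, the average of log2 values lies far below the average of FPKM, so a hybrid at the mean FPKM of its parents is counted as higher. The ID evm.model.Chr23.828, given above, shows this. It was above the log2 mid-parent by 2.57 in LPC (SE 0.15, limma adjusted p = 8.89e-05), by 2.63 in LCP (SE 0.15, adjusted p = 7.2e-05) and by 2.6 for both (SE 0.13, adjusted p = 9.71e-06). Its mean over the hybrids was 66.5 FPKM and the mean of the parental FPKM means was 57.3, and against the log2 of that mean the difference was 0.2 (SE 0.15, adjusted p = 0.777). Against this linear mid-parent 1 ID was higher and 9 were lower for the mean of both hybrids (0.00558% and 0.0502% of the IDs tested). All of the 9 but evm.model.Chr3.643 would have failed the filter without the parent in which they were high. Their calls add no support, so the split is not read as a skew toward lower levels. Only 3 IDs were called on both scales, namely evm.model.Chr2.1175, evm.model.Chr10.59 and BGI_novel_G002515. The last of these passed the filter only through LP, and evm.model.Chr10.59 would not have passed it without LP. The calls of both therefore add no support.

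The ID evm.model.Chr2.1175, chosen after its values were seen, was the only one of the 9 called IDs with all 6 hybrid libraries above all 6 parental ones. Its FPKM was 23.31, 32.71 and 24.7 in LPC and 32.31, 34.99 and 44.18 in LCP. It was 10.47, 10.33 and 15.21 in LP and 12.31, 15.03 and 17.84 in LC. The lowest hybrid library lay above the highest parental one, and the parents overlapped each other. The difference was 1.18 on the log2 scale (SE 0.16, limma adjusted p = 0.0324) and 1.17 (SE 0.16, adjusted p = 0.0382) against the linear mid-parent. The log2 call was lost when any 1 library other than LP 3 was left out, and when LPC 3 and LCP 2 were left out together (adjusted p up to 0.146, difference 1.11 to 1.26).

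BGI_novel_G001303 had hybrid levels at those of the higher parent. Its FPKM was 15.89, 15.58 and 39.83 in LPC, 17.06, 32.63 and 28.13 in LCP, 26.36, 21.04 and 16.74 in LP, and 0.16, 0 and 0.41 in LC. Both hybrids overlapped LP and lay above LC. The difference from the log2 mid-parent was 2.25 (SE 0.26, limma adjusted p = 0.0152) and that from the linear one 1.06 (SE 0.31, adjusted p = 0.739). The call on the log2 scale was lost without LC 1, LC 2, LCP 2 or LCP 3 (up to 0.065).

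Both IDs called lower were IDs of LP brain that were near 0 in the hybrids. The first was BGI_novel_G002515, given above, which passed the filter only through LP. The second was evm.model.Chr10.59. The FPKM of evm.model.Chr10.59 was 18.07, 9.73 and 15.62 in LP, 1.45, 0.31 and 0 in LC, and 0.45, 0 and 0 in LCP, and it was listed at 0 in LPC. Outside LP only LC 1 reached an FPKM of at least 1, so this ID would not have passed the filter without LP. Its calls therefore add no support. All hybrid libraries lay below LP and overlapped LC, with a difference from the mid-parent of -2.15 (SE 0.25, limma adjusted p = 0.0152). This call was lost without LP 1, LC 2, LPC 2, LPC 3, LCP 2 or LCP 3 (adjusted p up to 0.065), without LPC 3 and LCP 2 together (0.129), with a pseudocount of 0.1 (0.0626) and with a filter at an FPKM of 5 (0.238). For LPC alone the adjusted p was 0.0499, and the call held under 3 of 20 alternatives. It was lost without any 1 library other than LP 2 (up to 0.194), under median-ratio scaling (0.0907) and under quantile normalization (0.109), and with a filter at an FPKM of 5 it reached 0.49. The call of BGI_novel_G002515 adds no support, and no p-value is given for it. It was lost without any 1 LC, LPC or LCP library and with a filter at an FPKM of 5, and it could not be tested without an LP library.

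The ID called lower in LCP alone was evm.model.Chr3.643, with an FPKM of 19.53, 8.36 and 12.93 in LP, 0.35, 1.04 and 1.09 in LC, and 2.43, 1.94 and 2.43 in LPC, and listed at 0 in all LCP libraries. LCP thus lay below both parents and LPC between them, with no overlap, and LCP had an adjusted p of 0.0278 (limma) against the log2 mid-parent. LCP was not called against LC (adjusted p = 0.604). The mid-parent call was lost without LC 2, LC 3, LPC 1, LPC 2 or any 1 LCP library (adjusted p up to 0.13) and without LPC 3 and LCP 2 together (0.183). It was also lost under median-ratio scaling (0.0559) and with a filter at an FPKM of 5 (0.151).

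**Figure D3:**
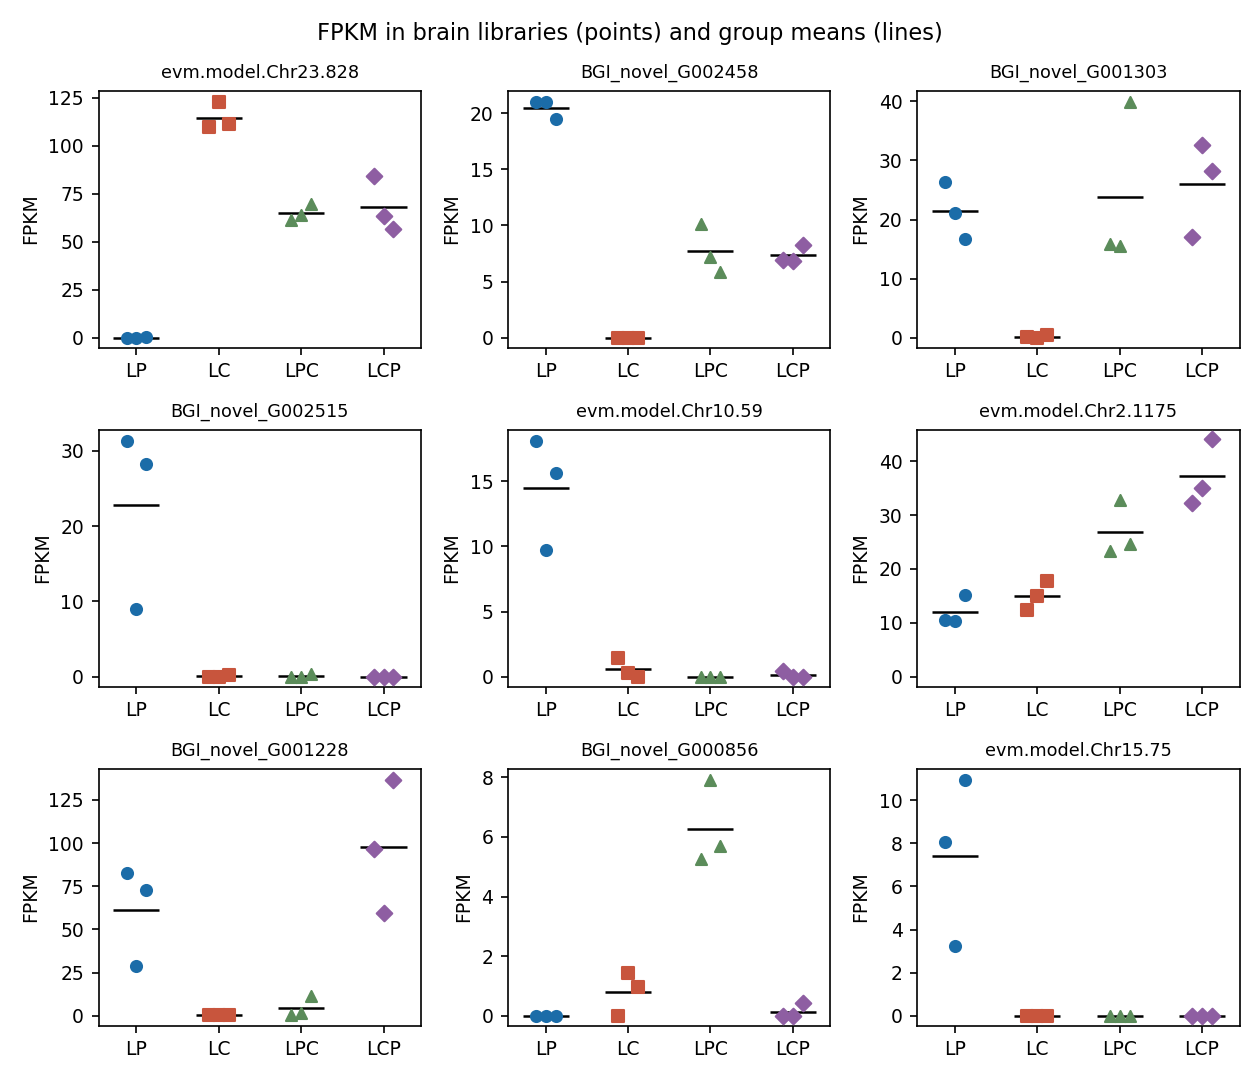
FPKM of 9 IDs in the 12 brain libraries, 1 panel per ID. Points are libraries and lines are group means (n = 3). Both hybrids lie between the parents for evm.model.Chr23.828 and BGI_novel_G002458, with LP for BGI_novel_G001303, near 0 for BGI_novel_G002515, evm.model.Chr10.59 and evm.model.Chr15.75, and above both parents for evm.model.Chr2.1175. The hybrids part for BGI_novel_G001228 and BGI_novel_G000856.

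Small counts of mid-parent calls moved with single libraries. The 9 IDs called for the mean of both hybrids became 5 without LP 1, LC 1 or LPC 3, 2 without LC 2, and 4 without LCP 2 or LCP 3, and the 7 of LPC became 1 without LC 3, LPC 3, LCP 1 or LCP 3, 2 without LC 1 or LPC 2, 3 without LP 1 or LP 3, 4 without LC 2 or LPC 1, and 11 without LCP 2. The 2 of LCP became 7 without LP 3, 5 without LPC 3, and 1 without LC 2, LC 3, LPC 2, LCP 1 or LCP 3. With LPC 3 and LCP 2 both left out, 3 IDs were called for the mean of both hybrids, 1 for LPC and 1 for LCP.

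Each ID was placed in an inheritance class from its calls against both parents. These calls share the parental libraries, and a missing call does not show equality. Of the 17931 IDs tested, 3 were above both parents in LPC, and 0 were in LCP. The 3 include evm.model.Chr11.722, which passed the filter only through LPC. The others, evm.model.Chr22.95 and BGI_novel_G000856, would not have passed it without the LPC libraries either. Outside LPC they reached an FPKM of at least 1 only in LP 2 (1.23) and in LC 2 (1.45), respectively. The calls of this class therefore add no support. In neither hybrid was an ID called below both parents. Between the parents, and called against each, were 3 IDs in LPC and 2 in LCP. Among IDs called between the parents, 82 in LPC and 85 in LCP were told apart from LP only, and 31 and 26 from LC only. Most of the 613, 497 in LPC and 500 in LCP, were told apart from neither parent.

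The IDs between the parents in both hybrids were BGI_novel_G001980 and BGI_novel_G002458, chosen after their values were seen. The FPKM of BGI_novel_G002458 was 20.97, 20.97 and 19.5 in LP, 10.1, 7.19 and 5.84 in LPC, and 6.91, 6.85 and 8.23 in LCP, and it was listed at 0 in LC. The hybrids overlapped each other and neither parent. LPC was below LP by -1.33 (SE 0.21, limma adjusted p = 0.0232) and LCP by -1.37 (SE 0.21, adjusted p = 0.0202). The FPKM of BGI_novel_G001980 was 11.38, 10.72 and 8.7 in LC, 0.48, 0.61 and 0.19 in LP, 2.99, 4.07 and 3.27 in LPC, and 3.82, 2.83 and 3.06 in LCP. Again the hybrids lay together between the parents, with LPC above LP by 1.64 (SE 0.22, adjusted p = 0.0094) and below LC by -1.34 (SE 0.22, adjusted p = 0.0468). LCP was above LP by 1.57 (SE 0.22, adjusted p = 0.0127) and below LC by -1.41 (SE 0.22, adjusted p = 0.0403). Both calls of BGI_novel_G001980 against LC were lost whichever of the 12 libraries was left out (adjusted p up to 0.233). Those of BGI_novel_G002458 against LP were lost without any 1 LP library, and without LPC 2 or LPC 3 in LPC and any 1 LCP library in LCP (up to 0.125).

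The 3 IDs above both parents in LPC were near 0 in LCP. For evm.model.Chr11.722 the FPKM was 12.91, 16.98 and 2.75 in LPC and 0, 0.77 and 0 in LCP, and it was listed at 0 in all 6 parental libraries. LPC lay above all other libraries, with LPC 3 the lowest of the cross. This ID passed the filter only through the 3 LPC libraries and was not tested when any of them was left out. Its calls therefore add no support, and no p-value is given for it. Its mid-parent call was also lost without any 1 LP or LC library, without LCP 1 or without LCP 3 and under quantile normalization.

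The other members of this class, evm.model.Chr22.95 and BGI_novel_G000856, were chosen after their values were seen. Neither would have passed the filter without the LPC libraries, so their calls are given as a description and add no support. The FPKM of BGI_novel_G000856 was 5.26, 7.9 and 5.68 in LPC, 0, 0 and 0.43 in LCP, and 0, 1.45 and 0.96 in LC, and it was listed at 0 in LP. LPC was above LP (limma adjusted p = 0.00405) and LC (2.09, SE 0.34, adjusted p = 0.0389), the second call being lost without any 1 library other than LC 2 (up to 0.18). This ID was also present in the other tissues of LPC, at a mean of 3.91 ± 2.97 (SD, n = 3) in liver and 4.05 ± 0.465 (SD, n = 3) in muscle, where the means of the other crosses were at most 0.45. The FPKM of evm.model.Chr22.95 was 3.84, 7.5 and 3.97 in LPC, 0, 0 and 0.24 in LCP, and 0, 1.23 and 0 in LP, and it was listed at 0 in LC. LPC was above LP by 2.17 (SE 0.35, adjusted p = 0.0234), a call lost without LP 1, LP 3, LC 3 or any 1 LPC library (up to 0.127). Against LC, where the adjusted p was 0.0167, the call was lost without any 1 LC library, LPC 2 or LPC 3 (up to 0.087).

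The direct comparison of the hybrids gave no call. Between LPC and LCP, 0 of 17931 IDs passed (limma, 0.0%). An unadjusted p under 0.05 was found for 642, a share below the 0.05 that no difference at all would give. With LPC 3 and LCP 2 left out 3 were called, and 1 to 2 were called without LP 1, LP 3, LC 1, LPC 2, LPC 3 or LCP 2. The other 2 IDs above both parents in LPC would not have passed the filter without LPC. Their differences were 2.46 (SE 0.35, adjusted p = 0.0786) for evm.model.Chr22.95 and 2.67 (SE 0.34, adjusted p = 0.076) for BGI_novel_G000856. The median 95% interval of a difference between the hybrids reached 0.79 to either side, so a missing call does not show that the hybrids have the same level.

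IDs present in one parent's brain and listed at 0 in all 3 libraries of the other trace how much of a parent's expression is found in a hybrid. They were chosen after the data were seen and on parental brain values, so a percentage of the parental mean is a description without a test. There were 59 such IDs of LC and 40 of LP. For the LC IDs the median hybrid level was 45.8% of the LC mean in LPC (quartiles 28.5% and 67%) and 56% in LCP (36.3% and 70.4%). For the LP IDs it was 35.8% of the LP mean in LPC (5.58% and 58.3%) and 24.9% in LCP (6.27% and 35.8%). Taken library by library, the medians over the LC IDs ran from 40.8% to 50.1% in LPC and from 35.0% to 55.9% in LCP. Those over the LP IDs ran from 21.6% to 35.2% and from 10.9% to 19.2%, so each hybrid library was lower for the LP IDs than for the LC IDs. BGI_novel IDs were 67.5% of the LP and 55.9% of the LC IDs.

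**Figure D4:**
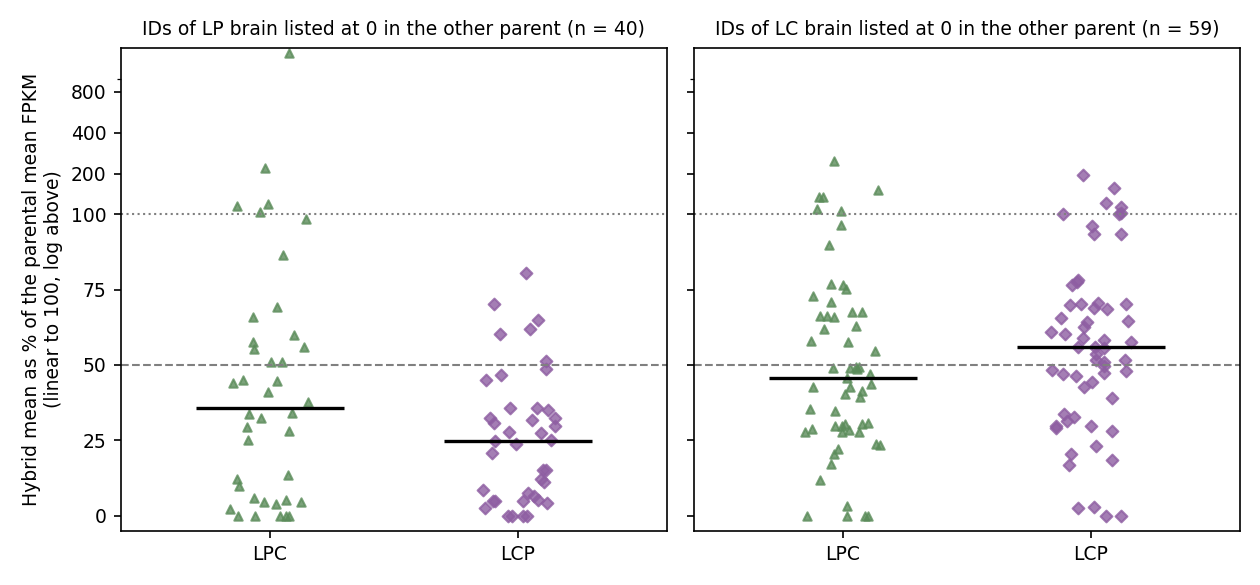
Mean FPKM of LPC and LCP brain as a percentage of the parental mean, for 40 IDs of LP brain (left) and 59 IDs of LC brain (right) that were listed at 0 in the other parent. Each point is an ID, black lines are medians, the dashed line marks 50% and the dotted line 100%. The axis is linear to 100 and logarithmic above. Medians are 35.8% and 24.9% for LP IDs and 45.8% and 56% for LC IDs.

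An FPKM of at least 1 in all 6 hybrid libraries was found for 21 of the 59 LC IDs and 5 of the 40 LP IDs. Listed at 0 in all 6 hybrid libraries were 3 LP IDs and 1 LC ID. The last was BGI_novel_G002075, chosen after its values were seen, with 2.5, 2.95 and 2.91 in LC. Among the LP IDs was evm.model.Chr15.75, chosen in the same way, with 8.08, 3.25 and 10.92 in LP brain and 0 in the other 9 brain libraries. The same ID was present in hybrid muscle, at a mean of 13.2 ± 4.02 (SD, n = 3) in LPC and 5.02 ± 6.23 (SD, n = 3) in LCP, against a mean of 11.2 in LP muscle and 1.16 in LC muscle. Its zeros thus held for hybrid brain but not for hybrid muscle.

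A second choice of such IDs rested on liver and muscle only, at an FPKM of at least 1 in all 6 libraries of one parent and 0 in all 6 of the other. It gave 7 IDs of LP and 5 of LC, 4 of which passed the brain filter. In brain, the 7 LP IDs stood at a median of 50.9% of the LP mean in LPC and 35.8% in LCP, within 11.3% to 220% over both hybrids. The 4 LC IDs stood at a median of 61.6% in LPC (0% to 246%) and 61.0% in LCP (20.3% to 93.5%). The 0% was BGI_novel_G002127, chosen after its values were seen, with 9.28, 23.39 and 5.14 in LC, 4.91, 18.6 and 11.84 in LCP, and 0 in all LPC and LP libraries. LCP overlapped LC for this ID, and LPC did not.

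Over wider sets of IDs the median position of both hybrids lay near the middle on the log2 scale. Shifts toward the higher parent have opposite signs for IDs high in LP and IDs high in LC, and can cancel in this median. A median near 0 thus does not show that single IDs lie midway. The position of a library is its median place between the parental means, with -1 at LP and 1 at LC. It was read over 188 IDs that differed between the parents by at least 1 on the log2 scale in brain and were called with the same direction in both liver and muscle. LPC libraries lay at 0.168, 0.0358 and 0.0763 (mean 0.0932 ± 0.0675, SD, n = 3). LCP libraries lay at -0.14, 0.138 and -0.0284 (mean -0.0104 ± 0.14, SD, n = 3). The hybrids overlapped, with a difference of 0.104 (exact 2-sided permutation p = 0.3, where 0.1 is the smallest that 3 against 3 allows). Over the 613 IDs called between the parents in brain, LPC averaged 0.129 ± 0.0644 (SD, n = 3) and LCP 0.169 ± 0.0757 (SD, n = 3), so the sign of the difference turned (-0.0396, exact permutation p = 0.6). All hybrid libraries lay on the LC side of 0 over these 613 IDs, at 0.0791 to 0.244. The 613 IDs were chosen on the parental brain libraries, and this placement was not tested.

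**Figure D5:**
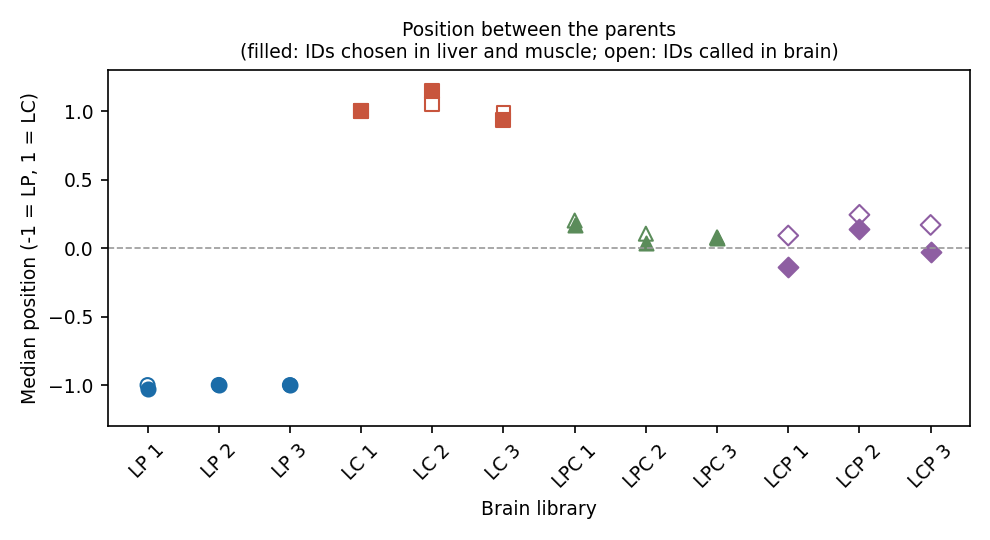
Median position of each brain library between the parental means (-1 at LP, 1 at LC), over 188 IDs (filled) and over 613 IDs called in brain (open). The 188 IDs were called between the parents in liver and muscle. They also differed by at least 1 on the log2 scale in the same direction in brain. Hybrid libraries lie between -0.14 and 0.244. The parental libraries lie near -1 and 1 because they define the scale.

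Few IDs set all hybrid libraries outside all parental ones. All 6 hybrid libraries were above all 6 parental libraries for 12 IDs (0.0669%) and below them for 23 (0.128%). Under random assignment of the libraries, complete separation on either side has an exact 2-sided permutation p of 0.00216. The shares do not exceed it, so the counts are a description. The rises were 1.23-fold to 12.4-fold of FPKM + 1 (median 2.34-fold), and 6 of the 12 were BGI_novel IDs. Those below stood at 0.463 to 0.885 of the parental level (median 0.733), and 1 of the 23 was a BGI_novel ID. Only evm.model.Chr2.1175 among these 35 was called against the mid-parent. The 12.4-fold rise was that of BGI_novel_G000282, chosen after its values were seen, with 3.64, 18.57 and 40.55 in LPC, 6.38, 11.86 and 17.91 in LCP, 0, 0 and 0.29 in LP, and 1.52, 0.66 and 0 in LC. No hybrid library overlapped a parent, and LPC ran from 3.64 to 40.55. The difference from the mid-parent was 3.38 (SE 0.49) and was not called (limma adjusted p = 0.0506). Outside the hybrids only LC 1 reached an FPKM of at least 1. This ID would not have passed the filter without the hybrid libraries, so its values are a description and add no support. No ID was at an FPKM of at least 1 in all 6 hybrid libraries and at 0 in all parental ones, and none showed the reverse.

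For one hybrid at a time, the 3 LPC libraries lay above all 6 parental libraries for 227 IDs (1.27%) and below them for 212 (1.18%). For the 3 LCP libraries these counts were 86 (0.48%) and 128 (0.714%). With 3 libraries against 6, complete separation is more frequent under random assignment than with 6 against 6. These counts are therefore a description without a test, and no excess over random assignment is read from them. Of the IDs above, 39 in LPC and 26 in LCP were BGI_novel IDs.

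The 9 IDs called in brain against the log2 mid-parent were also read in liver and muscle, with the same fit in each tissue. In liver, 4 of them were tested and 0 were called in the brain's direction, while evm.model.Chr2.1175 was called the opposite way (-1.38, SE 0.45, limma adjusted p = 0.0364). In liver 2.64% of 12553 IDs were called higher and 29.9% lower, so a lower call was common there. In muscle, 4 of the 9 were tested and 2 were called higher, the direction called in brain. These were evm.model.Chr23.828 (2.69, limma adjusted p = 2.13e-05) and BGI_novel_G002456 (1.85, adjusted p = 6.32e-05), the latter chosen after its values were seen. Both were near 0 in LP in both tissues, where a hybrid at the mean parental FPKM is counted as higher on the log2 scale. Against the linear mid-parent neither was called in brain (0.2 and 0.33, limma adjusted p = 0.777 and 0.774). The brain calls of both thus depend on the scale. The places of both IDs between the parents differed by tissue. In muscle all LPC libraries lay above all LC libraries for both IDs (at least 25.26 against at most 16, and at least 7.03 against at most 2.65). The LCP libraries overlapped LC in muscle for both (11.96 to 15.43 against 5.82 to 16, and 1.99 to 4.89 against 1.69 to 2.65). In brain all hybrid libraries lay below all LC libraries for both. In muscle 42.8% of 10847 IDs were called higher and 4.42% lower.

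Broad lists of IDs moved little in hybrid brain. For 5194 brain-enriched IDs (a mean FPKM of at least 5 in brain and at least 5 times the liver and the muscle mean), the median difference of the mean of both hybrids from the mid-parent was -0.1 on the log2 scale, with 5 higher and 1 lower (0.116%, against 0.0502% of all IDs tested). For 403 IDs with similar means in all 3 tissues it was 0.09, with 0 called (0%). For the 1652 BGI_novel IDs it was 0.15, with 3 higher and 1 lower (0.242%), and 0.05 under quantile normalization. The 1 lower ID of the brain-enriched and of the BGI_novel list was BGI_novel_G002515. It passed the filter only through LP, so its call adds no support, and the shares called are a description. Over all IDs tested the median was 0.01.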

How the data were processed

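RNA sequencing of 12 brain libraries (LP, LC, LPC and LCP, 3 each) was used, with 24 liver and muscle libraries read for comparison. Per the labels' protocols, RNA was extracted with TRIzol and mRNA taken on oligo(dT) beads, cDNA was primed with random hexamers, and no strand step is described. Values are FPKM as deposited by the authors. Per the submitters' processing notes, fastp was used. The sources used here name no aligner, quantifier, genome build or annotation. Because FPKM divides by the library's total, a few abundant transcripts lower all other values.

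The sums of FPKM ran from 492062 to 634440 and do not measure depth. Steps of 1 fragment were looked for among low values against LP 1, where the fullest bin held at most 19% of the IDs compared. Whole fragments were not recovered, so depth is unknown and no count test was run.

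limma 3.58.1 in R 4.3.3 was fitted to log2(FPKM + 1) of the 4 brain groups together, with trend estimation. Tests were 2-sided and p-values were adjusted by Benjamini-Hochberg within each comparison, over the 17931 IDs with 3 or more libraries at an FPKM of 1 or above. Calls were made where the adjusted p was under 0.05. The added 1 shrinks differences of low values, and a difference from a group at 0 is not printed. The mid-parent was the mean of the LP and LC means on the log2 scale, and the alternative was log2 of their linear mean with a delta-method error. Library values were compared by exact permutation (924 assignments of 6 against 6, smallest p 0.00216).

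Named IDs were, per comparison, the 2 highest and 2 lowest called differences with a group mean FPKM of at least 5 and no overlap between sides (for the mid-parent, all hybrid libraries on 1 side of it). No p-value is given for an ID that passed the filter only through 1 cross, with no library of another cross at an FPKM of 1. All other IDs given by name are said to be chosen after their values were seen. The members, lists and rules were chosen with earlier results of these data known. Cell type markers by symbol could not be applied, since the table pairs no symbols with IDs. Column names gave the library of every value column. The scripts were tested on simulated data. Alternatives were a pseudocount of 0.1, other filters, median-ratio scaling, quantile normalization, the linear mid-parent, a block for replicate number, other thresholds for the library measures, each library left out and, added after seeing the data, LPC 3 and LCP 2 left out together. For 6 IDs chosen after their values were seen, the fits with libraries left out were added at the same stage.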

Additional observations from a re-analysis of the deposited data

Results flagged for a closer look

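In 2 named IDs the hybrids departed from the log2 mid-parent in opposite directions in every library. For BGI_novel_G002617 all 3 LPC libraries lay below and all 3 LCP libraries above the log2 mid-parent. LPC minus LCP was -2.77 (SE 0.41), with a limma adjusted p of 0.0786, which misses the threshold. For BGI_novel_G000299 the arrangement was the reverse, with LPC minus LCP at 2.61 (SE 0.5) and a limma adjusted p of 0.311. These directions depend on the scale. For BGI_novel_G002617, LCP stood at 46.9% of the LC mean with LP at 0. For BGI_novel_G000299 the mean FPKM was 5.5 in LPC, 12.4 in LC and 0.0633 in LP. In neither ID was the mean of the higher hybrid above the mean of the parental FPKM means.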

How the results depend on the processing

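Counts of called IDs moved by more than 1.5 times under these alternatives. A pseudocount of 0.1 gave 18 calls for LPC and 18 for LCP against the mid-parent, 32 for the mean of both hybrids and 5 between the hybrids. A filter at an FPKM of 5 gave 56 (LPC against LP), 48 (LCP against LP), 2 (LPC against the mid-parent), 5 (LCP against the mid-parent) and 408 (LC against LP), and no filter gave 6 for LCP against the mid-parent and 1 between the hybrids. Quantile normalization gave 3 for LPC and 14 for the mean of both hybrids against the mid-parent and 5 between the hybrids, and median-ratio scaling gave 1 and the linear mid-parent 4 for LCP. With LPC 3 and LCP 2 left out, an alternative added after the data were seen, calls numbered 62, 44 and 16 for LPC against LP, LCP against LP and LCP against LC, and 1, 1 and 3 against the mid-parent for LPC, LCP and their mean, with 3 between the hybrids. The cause of these shifts was not tested. Leaving out 1 library at a time gave 26 to 114 calls for LPC against LP, 18 to 35 for LPC against LC, 35 to 87 for LCP against LP, 19 to 29 for LCP against LC, and 233 to 698 for LC against LP. Against the mid-parent it gave 1 to 11 for LPC, 1 to 7 for LCP and 2 to 11 for their mean, with 0 to 2 between the hybrids. The difference between hybrid and parental libraries was then 247 to 658 IDs at an FPKM of at least 1, 0.878 to 1.76 percentage points for the 10 most abundant IDs and 0.0386 to 0.178 for the position of LPC against LCP. That position difference turned to -0.0396 over the IDs called in brain and, separately, with a pseudocount of 0.1. A replicate block gave 157 calls for LPC against LP, and 1 for LPC and 1 for LCP against the mid-parent. The limma adjusted p was then 0.0845 for evm.model.Chr3.643 in LCP and 0.0518 for evm.model.Chr10.59 in LPC. The LPC mid-parent call of evm.model.Chr11.722 was lost too. Of 18 same-numbered pairs of libraries, 10 had deviations correlated above 0.1 (range -0.369 to 0.656), and in 0 pairs of crosses did all 3. Every pair of libraries numbered 1 was above 0.1 (0.264 to 0.656). Whether libraries of the same number share a factor was not tested. Of 470 values of named IDs under alternatives, 356 kept their call and 114 lost it with the same direction. This tally includes IDs whose calls add no support, and an ID named in several comparisons enters it for each. Fits in which an ID was not tested are left out of it. The tally is therefore a description and not a measure of how stable the calls are. With 3 libraries a cross and unknown depth, small differences could not be called, and differences of IDs listed at 0 depend on the pseudocount.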
